A study of Mus musculus with 6 samples.

Results

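Among 76832 cells kept from the small intestinal lamina propria, 1417 (1.84%) were Pdgfra-high stromal cells with transcripts of Ptn and related genes. A cell was counted as a member when it held at least 3 UMIs (unique molecular identifiers, 1 for each transcript captured) of Pdgfra and at least 1 UMI of 4 or more of the 8 genes Ptn, Scg2, Gdf10, Slc12a2, Dlg2, Car8, Abcc9 and Adra1a. It also had to hold 0 UMIs of Bmp7, Prox1, Ptprc and Myh11, which mark villus tip telocytes, lymphatic endothelium, leukocytes and smooth muscle. The members numbered 686 of 17282 cells and 263 of 17924 cells in the proximal libraries, and 238 of 21299 and 230 of 20327 in the distal libraries. The members were thus chosen by the measured UMIs of these 13 genes. Their levels against other cells are given as a description with no test. Between regions, the test reported for each of the 8 genes is that in members chosen without it. Fits over all genes also held these 8 genes in the full set of members, which is stated where such a value is given. Scg2 was part of the pattern in the proximal libraries, whereas few distal members held it, so the cells are called Pdgfra-high Ptn cells below.

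PDGFRA is the alpha receptor for platelet-derived growth factors and marks several fibroblast types of the gut wall, among them telocytes at the villus tip and trophocytes around the crypts. Ptn encodes pleiotrophin, a heparin-binding growth factor, and Scg2 encodes secretogranin II, a protein of dense-core secretory granules best known from neurons and endocrine cells. Gdf10 is a ligand of the BMP family, Slc12a2 the sodium-potassium-chloride cotransporter NKCC1, Dlg2 a synaptic scaffold protein, Car8 a carbonic anhydrase-related protein, Abcc9 the regulatory subunit of ATP-sensitive potassium channels and Adra1a an alpha-1 adrenergic receptor. In the muscle layers of the gut, PDGFRA-positive interstitial cells carry the small-conductance potassium channel Kcnn3 and relay inhibitory purine signals from enteric neurons, while pericytes carry Abcc9 with its pore subunit Kcnj8.

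The cells were sorted as live tdTomato+ cells from adult Flare-TSLP mice, in which an internal ribosome entry site and tdTomato placed behind the Tslp coding sequence report the locus, and loxP sites flank the last coding exons of Tslp. All libraries share this reporter and no group was treated. The 6 libraries comprised 2 from the proximal jejunum, called proximal here, 2 from the distal ileum, called distal, and 1 each from cecum and large intestine, and they held 109675337 to 206827504 gene UMIs each. No table pairs the antibody hashtags with mice, so each library is 1 sample and p-values measure the spread between libraries. The members of the small intestinal libraries had medians of 6547.5 to 9964 UMIs and 3.02 to 3.68% mitochondrial UMIs, against 2.23 to 2.56% in trophocyte-like cells of the same libraries. Scrublet called 13.04 to 23.9% of them doublets. Of all kept cells, 15653 of 17282 and 16636 of 17924 proximal and 19367 of 21299 and 18024 of 20327 distal ones were not called doublets. The called share was thus higher in the members in each small intestinal library, and called doublets stay in the main values. The libraries shared 38 to 118 kept barcodes in each pair and 0 member barcodes.

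Levels are counts per 1000000 gene UMIs (CPM) in the UMIs summed over the cells of a library, with the SD over the 4 small intestinal libraries. Comparison cells were drawn from the same libraries by other markers. Telocyte-like cells (130) held Pdgfra, Bmp7 and at least 2 of Foxl1, Wnt5a, Bmp3 and Lgr5. Trophocyte-like cells (24920) held at least 3 of Grem1, Dkk2, Ackr4 and Cd34, and subepithelial-like cells (2096) held Wnt4 and at least 2 of Agt, Procr, Foxl1 and Nrg1; both held fewer than 4 of the 8 genes.

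The rule required 4 or more of the 8 genes in a cell, so their presence together was set by it, and only their summed levels are described here. Single genes were missing from part of the cells: Gdf10 was held by 62.2 and 67.4% of distal members and Car8 by 73.1 and 64.8%. Scg2, which was low in the distal sums, is described below. Ptn stood at 1572 and 1328 CPM in the proximal and at 1057 and 927 CPM in the distal libraries, with means of 8.07 CPM in telocyte-like and 6.02 CPM in trophocyte-like cells. Gdf10 stood at 499.5 and 469 CPM in the proximal and at 243 and 348 CPM in the distal libraries, against a mean of 5.64 CPM in trophocyte-like cells. The distal libraries were the lower ones for both genes. Slc12a2 measured 964 ± 169 CPM (SD, n = 4), Dlg2 1022 ± 198 CPM, Car8 429 ± 103 CPM, Abcc9 636 ± 186 CPM and Adra1a 357 ± 72.3 CPM. Telocyte-like cells shared Dlg2 (mean 426 CPM) and Abcc9 (mean 122 CPM) with the members, but not Ptn. Pericyte-like cells shared Abcc9 (mean 390 CPM), Slc12a2 (423 CPM) and Adra1a (146 CPM). Pdgfra itself was 1909 ± 221 CPM in the members, a mean of 1734 CPM in telocyte-like cells and 511 CPM in trophocyte-like cells. This order was set in part by the gates, since members and telocyte-like cells shared a lower limit of Pdgfra UMIs and trophocyte-like cells had none. The plot of rule gene levels shows these values by library.

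**Figure D1:**
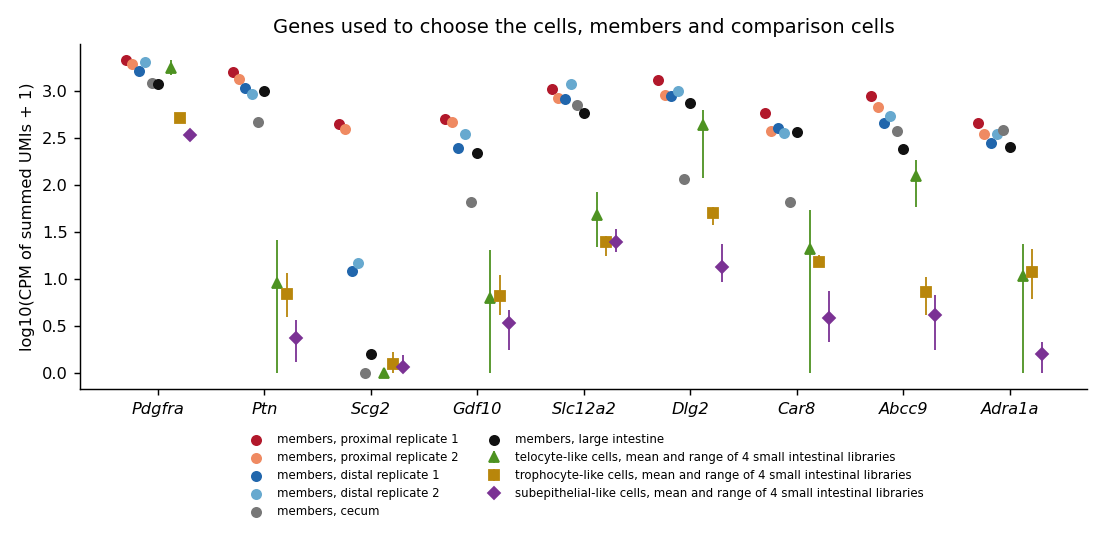
Levels of the genes that chose the cells, as log10 of CPM plus 1 (vertical axis), for each gene (horizontal axis). Circles are the members of 1 library each; triangles, squares and diamonds are the means of the comparison cells, and lines their range over 4 libraries. Scg2 lies at 447 and 386 CPM in the proximal members, at 11.4 and 13.7 CPM in the distal members and at 0.628 CPM or less in cecum and large intestine.

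The number of the 8 genes per cell separated the members unevenly. Of the proximal members, 531 of 686 (77.4%) and 188 of 263 (71.5%) held 6 or more of the 8 genes, and of the distal members 141 of 238 (59.2%) and 136 of 230 (59.1%) did. In proximal replicate 1, 232 Pdgfra-high barcodes held 3 genes, 96 held 4, 59 held 5 and 104 held 6, so that a low point lay at 5 genes. Proximal replicate 2 (202, 46, 29 and 43 in the same order) and distal replicate 1 (241, 58, 39 and 51) had it too. Distal replicate 2 (117, 46, 48 and 48) had no low point at 5 genes. Scg2 is 1 of the 8 genes and was found in fewer distal members, as given below, so these shares are set in part by it.

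Members just inside the limit overlapped with the cells just outside it in Grem1 but not in Kcnn3. In the 4 libraries, members with exactly 4 of the 8 genes had 457 to 1312 CPM of Grem1, a BMP antagonist of trophocytes, and cells with 3 of the 8 genes had 816 to 1452 CPM. Members with 5 or more genes had 175 to 258 CPM of Grem1. Kcnn3, which was no part of the rule, stood at 693 to 1172 CPM in members with 4 genes, 328 to 464 CPM in cells with 3 genes and 2063 to 2607 CPM in members with 5 or more. Members with 4 genes also held more UMIs per cell, with medians of 8476.5 to 14781 against 6167.5 to 9309. Members with exactly 4 genes made up 13.99 and 17.5% of proximal and 24.4 and 20.0% of distal members. Their part in the values below was followed with members of at least 5 or 6 genes.

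**Figure D2:**
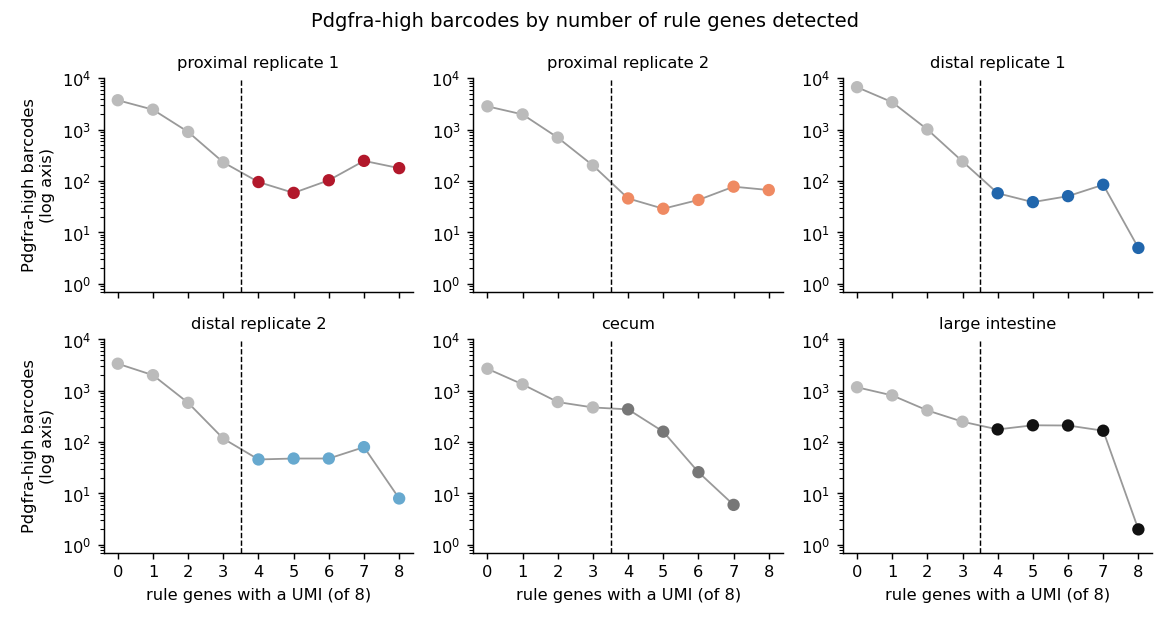
Number of Pdgfra-high barcodes with 0 UMIs of the 4 excluded genes (vertical axis, log scale) by how many of the 8 rule genes held a UMI (horizontal axis), in 1 panel per library. The dashed line marks the limit of 4 genes. The small intestinal libraries have a second rise at 7 genes (248, 78, 85 and 80 barcodes), while the cecum falls from 435 barcodes at 4 genes to 6 at 7 genes.

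Beyond the rule genes, Kcnn3 and Kcnj8 were among the genes at higher levels in the members than in trophocyte-like cells of the same libraries. As a background, 42.4% of 11449 genes with at least 5 CPM in either class were higher in the members in 4 of 4 libraries and 21.7% were lower. Kcnn3, the small-conductance calcium-gated potassium channel SK3, stood at 2281 and 2178 CPM in the proximal and at 1633 and 2261 CPM in the distal members. Trophocyte-like cells had 223 to 426 CPM of it, and no library overlapped between the classes. Kcnn3 was not unique to the members, since lymphatic-like cells had a mean of 587 CPM. Kcnj8, the pore subunit that pairs with Abcc9, was 78.7 ± 29.2 CPM against a mean of 1.35 CPM. Of 5 calcium- and ATP-gated potassium channel genes measured, 4 were higher and 1 was lower in the members in all 4 libraries, and 1 of the 4 was the rule gene Abcc9.

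Receptor genes for transmitters and peptides moved in both directions. Of 7 purine receptor genes measured, 2 were higher and 1 was lower in the members in all 4 libraries, and of 6 gut hormone and neuropeptide receptor genes 3 were higher and 2 lower. Of 4 adrenergic receptor genes measured, 3 were higher and 1 was lower in the members in all 4 libraries, and the higher ones were the rule gene Adra1a, Adra2b (52.9 ± 18.4 CPM against a mean of 0.12) and Adrb1 (26.8 ± 7.33 against 1.08). Adora1, an adenosine receptor, was 33.2 ± 3.46 CPM against a mean of 0.947 CPM. Htr2a, a serotonin receptor, was 67.2 ± 11.6 CPM against 0.206 CPM, and Ntsr1, a neurotensin receptor, was 53.4 ± 17.1 CPM against 0.0466 CPM. The glutamate receptor gene Grm7 stood at 674 and 366 CPM in the proximal and 1219 and 794 CPM in the distal members. Ramp1, a partner of the receptor for calcitonin gene-related peptide, was 239 ± 26.7 CPM against 42.3 CPM, while its partner Calcrl was higher in 1 of 4 libraries (366 ± 54.9 against 440 CPM). Gucy1b1, a subunit of the guanylyl cyclase that nitric oxide activates, was 912 ± 125 CPM against 111 CPM. The purine receptor P2ry1 was 85.6 ± 26.3 CPM against 64.7 CPM, and higher in 3 of 4 libraries. Glp2r, the receptor for the gut hormone GLP-2, was 26.3 ± 5.43 CPM in the members, 42.3 CPM in trophocyte-like and 368 CPM in telocyte-like cells.

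Secretory and growth factor genes were higher in the members in part. Of 4 granin and peptide processing genes measured, 3 were higher in the members in all 4 libraries. They were Scg2, which the rule used, Scg5 (15.3 ± 4.96 against 0.299 CPM) and Cpe, the carboxypeptidase that trims peptide precursors, at 160 and 103 CPM in the proximal and 162 and 147 CPM in the distal members against 1.46 to 3.10 CPM in trophocyte-like cells. Pericyte-like cells had a mean of 104 CPM of Cpe and lymphatic-like cells 31.3 CPM. The fourth gene, Pam, which amidates peptides, was lower (297 ± 23.9 against 532 CPM). Chga, Vgf and Pcsk1, genes of endocrine granules, were at 0 to 0.943 CPM. Of 7 neurotrophic and heparin-binding factor genes, 5 were higher and 1 was lower in all 4 libraries, and 1 of the 5 was the rule gene Ptn.

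WNT and BMP genes divided between the classes. Of 8 BMP and GDF ligand genes, 2 were higher and 5 were lower in the members in all 4 libraries, and 1 of the 2 was the rule gene Gdf10. Bmp5 was 46.7 ± 16.3 CPM in the members, 136 CPM in trophocyte-like and 2119 CPM in telocyte-like cells. Of 9 BMP antagonist genes, 2 were higher and 5 lower, with Grem1 at 380 ± 90.0 CPM in the members and 977 CPM in trophocyte-like cells, part of whose gate it was. Wnt5a was 145 ± 41.3 CPM in the members, 27.9 CPM in trophocyte-like and 665 CPM in telocyte-like cells. Notum, which inactivates WNT proteins, was low at 18.1 ± 4.31 CPM and 0.0615 CPM in trophocyte-like cells. Of 8 WNT modulator genes, 2 were higher and 5 lower. Among the latter were Dkk2, which was part of the gate of trophocyte-like cells, and Sfrp1, which stood at 1107 ± 236 against 2442 CPM.

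Collagen genes were mostly lower in the members, whereas the matrix genes Thbs2 and Smoc2 were higher. Of 25 collagen genes, 18 were lower and 4 were higher in all 4 libraries, with a median log2 difference of -0.53 beside 0.11 over all 11449 genes. Col1a1 was 1703 ± 237 CPM against 3941 CPM. Thbs2, a matrix protein of the thrombospondin family, was higher at 1058 ± 195 CPM against 44.3 CPM, as was Smoc2 at 712 ± 157 against 88.6 CPM. Of 23 transcription factor genes of gut stroma, 8 were higher and 12 lower, with Meis2 at 2640 ± 305 CPM against 784 CPM and Hand2 at 42.3 ± 2.10 against 7.13 CPM. Of 22 immediate early and heat shock genes, 19 were lower and 1 higher, with Egr1 at 1063 ± 251 against 2177 CPM. These genes respond to cell handling, and whether handling took part in the difference was not tested.

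The genes outside the rule and the lists with the largest ratio to all 3 comparison classes were led by Rgs7, a regulator of G protein signalling. It was 294 and 222 CPM in the proximal and 156 and 233 CPM in the distal members, at least 24.8 times the comparison classes in every library after 5 CPM were added. Lymphatic-like cells had a mean of 224 CPM, so Rgs7 was shared with them. Others were Tmem229a (195 ± 49.6 CPM), Epha3, an ephrin receptor (258 ± 35.7 CPM), Ppm1l, a protein phosphatase (412 ± 105 CPM, beside a mean of 244 CPM in pericyte-like cells), Kcnq3, a voltage-gated potassium channel (85.1 ± 25.5 CPM), Fibin (688 ± 76.2 CPM) and Mkx, a homeobox factor of tendon (105 ± 17.0 CPM). The genes lowest in the members against all 3 classes included the transcription factor Dach1 (98.4 ± 17.1 CPM against means of 284 to 1305 CPM), Adamdec1 (989 ± 385 against 3422 to 4839 CPM) and Plac8 (354 ± 107 against 903 to 1609 CPM).

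Markers of other cell types were low in part. Kit and Ano1, which define interstitial cells of Cajal, were at means of 1.14 ± 0.276 and 3.42 ± 2.13 CPM. Gucy1b1 and Etv1 (154 to 222 CPM), the 2 of 5 genes on the list for these cells with at least 5 CPM, were both higher than in trophocyte-like cells in all 4 libraries, and the list summed to 884 to 1184 CPM against 120 to 206 CPM. Of the 7 smooth muscle markers, Myh11 was 0 by the rule and their summed level was 452 to 797 CPM, against 85.3 to 192 CPM in trophocyte-like cells. Acta2 was 239 ± 60.0 CPM in the members, beside a mean of 3472 CPM in pericyte-like cells. Of the 6 pericyte markers measured, 4 were higher and 1 was lower in the members in all 4 libraries, and the list summed to 1890 to 3240 CPM against 608 to 1329 CPM in trophocyte-like cells. Rgs5 (1687 ± 388 CPM) and Abcc9, which the rule used, were high, and Kcnj8 (47.7 to 116 against 0.557 to 2.24 CPM) and Cspg4 (49.6 to 77.7 against 11.2 to 26.2 CPM) were higher too, whereas Notch3 (2.54 to 12.6 CPM) and Higd1b (1.59 to 2.07 CPM) were low. The 6 markers of PDGFRA interstitial cells of gut muscle summed to 3605 to 4969 CPM, of which Pdgfra and Adra1a were set by the rule, and Kcnn2 (1.02 to 7.74 CPM) and Gja1 (17.0 to 31.1 CPM) were low. Enteric neuron markers summed to at most 2.58 CPM and enteroendocrine markers to at most 2.20 CPM. The 6 blood endothelial markers summed to 55.8 to 203 CPM in the members and 42.7 to 94.3 CPM in trophocyte-like cells, and the 6 immune markers to 49.2 to 389 CPM and 147 to 191 CPM. In each proximal library 1 member rich in Igha held much of the immune sum, as given below.

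The share of members was higher in both proximal libraries than in either distal one, in a design too small for the permutation test to pass its threshold. Members were 3.97% of kept cells in proximal replicate 1 (95% exact interval 3.68 to 4.27), 1.47% in replicate 2 (1.30 to 1.65), 1.12% in distal replicate 1 (0.98 to 1.27) and 1.13% in replicate 2 (0.99 to 1.29). The means were 2.72% ± 1.77 (SD, n = 2) and 1.12% ± 0.00995 (SD, n = 2). The difference in means of 1.59 percentage points gave p = 0.333 in the exact two-sided permutation test, the smallest that 2 against 2 libraries allow. Without proximal replicate 1 the difference was 0.343 points, and without proximal replicate 2 it was 2.84 points. Thinned to 2500 UMIs per cell, the shares were 3.15 and 1.07% against 0.67 and 0.86%. Among barcodes without a called hashtag, which hold most members, they were 9.85 and 4.52% against 4.49 and 5.35%, so that there proximal replicate 2 lay below distal replicate 2.

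Scg2, the gene of secretogranin II, was lower in distal than in proximal members. It lies on chr1:79412386-79417837 of GRCm39, on the minus strand. In members chosen without it, by at least 4 of the other 7 genes, Scg2 stood at 448 and 387 CPM in the proximal and at 11.4 and 13.7 CPM in the distal libraries. The log2 change from proximal to distal was -5.03 (SE 0.236, adjusted p = 9.69e-05, edgeR's quasi-likelihood test, n = 2 and 2).

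Within the proximal libraries Scg2 was carried by a minority of the members at high level. It had at least 1 UMI in 248 of 686 (36.2%) and 85 of 263 (32.3%) proximal members and in 13 of 238 (5.46%) and 13 of 230 (5.65%) distal members. In trophocyte-like cells the share was 0 to 0.681%, at median UMIs of 8036 to 10556 against 6547.5 to 9964 in the members. Proximal members with 5 or more Scg2 UMIs numbered 153 (22.3%) and 55 (20.9%), with means of 15.3 and 21.5 UMIs, and they held 92.3 and 96.4% of all Scg2 UMIs of the members. Of the distal members, 1 and 2 held 5 or more. The middle class of 2 to 4 UMIs held 50 and 7 proximal members, and 45 and 23 held 1 UMI, so that in both libraries more cells held 5 or more than 1 to 4. The 0 UMIs in 627 cells of the cecum that met the same rule allow a share of cells with a UMI of up to 0.478% (3 counts of the total, counting error only), and 5 of 770 cells of the large intestine held 1 UMI each.

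**Figure D3:**
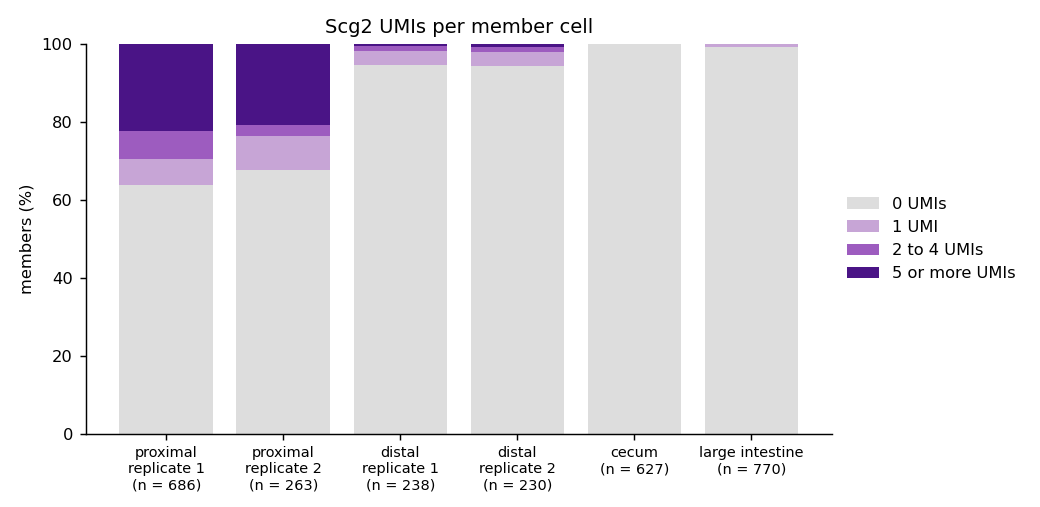
Share of members (vertical axis, percent) by their number of Scg2 UMIs (colours), in 1 bar per library with its number of members. The class of 5 or more UMIs fills 22.3 and 20.9% of the proximal bars and 0.42 and 0.87% of the distal bars.

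Scg2 was not carried by cells of a single hashtag. The share of members with a Scg2 UMI was 41.5, 37.6 and 11.8% under the 3 hashtags of proximal replicate 1 (the last with 17 cells) and 36.1% without a called hashtag. In proximal replicate 2 it was 42.6, 42.9 and 26.1%, and 29.1% without a hashtag.

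Proximal members with 5 or more Scg2 UMIs and those with 0 differed in other genes too, which are given as a description because the split was made after the values were seen. Kcne4, a potassium channel accessory subunit, was 192 and 191 CPM in the Scg2-high members of the 2 libraries and 76.4 and 68.8 CPM in those with 0. Ptn was 2361 and 1996 CPM against 1263 and 1035 CPM, and Gfra1, a receptor for glial cell line-derived neurotrophic factor, was 33.1 and 32.6 CPM against 10.6 and 12.99 CPM. Plce1, a phospholipase, was lower at 38.0 and 45.9 CPM against 275 and 221 CPM, as was Slit2, an axon guidance ligand, at 106 and 105 CPM against 406 and 596 CPM. Cpe was 63.9 and 51.8 CPM against 201 and 120 CPM, and Grem1 141 and 102 CPM against 438 and 715 CPM. The median UMIs of the 2 sets were 6894 against 7086 and 9181 against 9809.5.

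Part of this contrast lay in members with few rule genes. Among members with 6 or more of the other 7 genes (146 against 291 cells, and 52 against 105), which are part of the sets above, Kcne4 was 193 and 192 CPM against 103 and 104 CPM, and Ptn 2356 and 1935 CPM against 1572 and 1547 CPM. Ptn is a rule gene, as are Dlg2, Gdf10 and Abcc9, which were also higher in both libraries. The rule genes Slc12a2 (1101 and 1030 against 1398 and 1286 CPM) and Car8 (747 and 482 against 825 and 561 CPM) were lower in both. Adra1a and Pdgfra had no common direction. Cpe was 60.8 and 44.9 CPM against 125 and 116 CPM. Grem1 shrank to 144 against 154 CPM in replicate 1 and stayed apart at 107 against 249 CPM in replicate 2. Kcnn3 was 2635 and 3027 CPM against 2795 and 2831 CPM, with no common direction. Markers of several other cell types moved with the split. PDGFRA interstitial cell markers, which include Pdgfra and Adra1a, summed to 5902 and 6089 CPM in Scg2-high members. In those with 0 they summed to 4483 and 3974 CPM. Among members with 6 or more of the other 7 genes the sums were 5974 and 6150 against 5983 and 6023 CPM. Markers of interstitial cells of Cajal summed to 1334 and 1564 against 1080 and 980 CPM. Among the stricter members they summed to 1345 and 1568 against 1274 and 1452 CPM. The 6 blood endothelial genes summed to 63.0 and 17.8 CPM in Scg2-high members and to 274 and 110 CPM in those with 0, and to 29.6 and 18.6 against 118 and 23.4 CPM among members with 6 or more of the other 7 genes. Smooth muscle markers summed to 306 and 381 CPM against 521 and 523 CPM, and to 309 and 350 against 397 and 507 CPM among the latter members. Pericyte markers, which include the rule gene Abcc9, were higher in Scg2-high members at 4155 and 4138 against 2744 and 2252 CPM, and at 4206 and 4197 against 3864 and 3716 CPM among the latter. Trophocyte markers, which include Grem1, were lower at 806 and 881 against 1372 and 1678 CPM, and at 809 and 898 against 886 and 995 CPM. Subepithelial fibroblast markers summed to 21.0 and 14.8 against 51.4 and 91.9 CPM, and to 17.7 and 10.8 against 17.5 and 66.3 CPM among the latter. General fibroblast markers summed to 13834 and 17500.1 against 17994 and 21264 CPM, and to 13946 and 17556 against 14712 and 15110 CPM among the latter. Immune markers differed in opposite directions, at 707 against 98.5 CPM in replicate 1 and 80.0 against 558 CPM in replicate 2. Jchain, 1 of the 6 immune markers, was 226 and 380 CPM in all proximal members. Without the 1 member rich in Igha of each library it was 95.8 and 62.1 CPM, so 1 barcode a library held much of the immune sum. The part of these markers in the contrast was not tested.

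**Figure D4:**
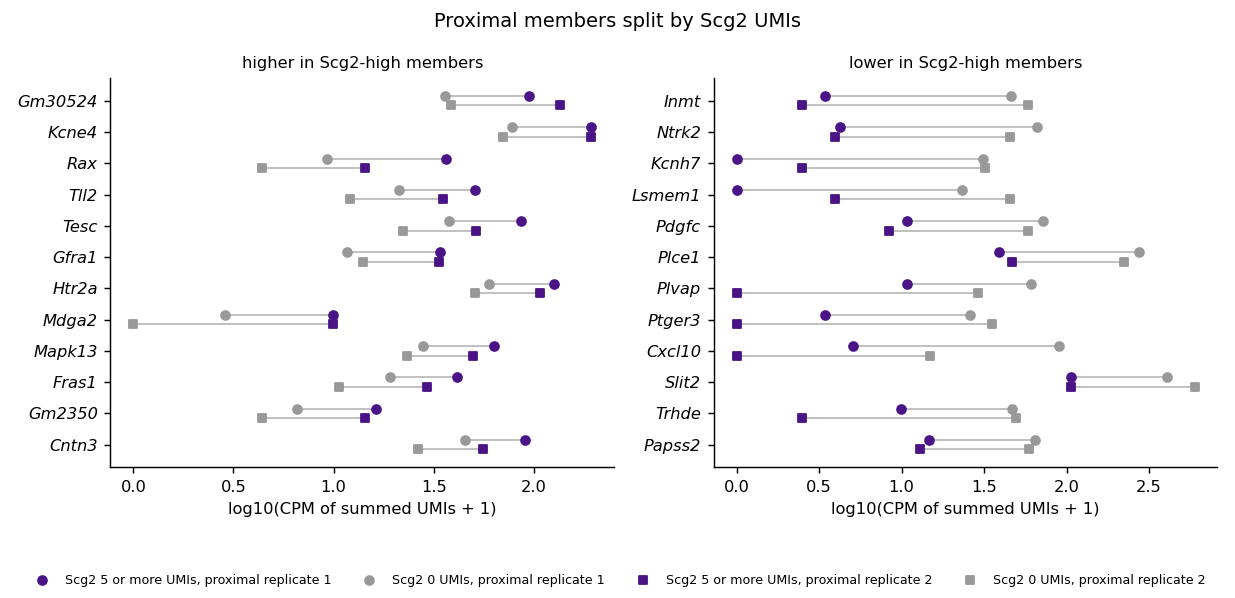
Levels of 12 genes higher (left) and 12 genes lower (right) in proximal members with 5 or more Scg2 UMIs (purple) than in those with 0 (grey), as log10 of CPM plus 1 on the horizontal axis. Circles are replicate 1 and squares replicate 2. Kcne4 moves from 76.4 to 192 CPM and from 68.8 to 191 CPM.

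The question of what changes along the small intestine within this cell group was addressed by comparing proximal and distal sums. Of 11787 genes tested, 8 passed an adjusted p of 0.05 (0.0679%), with 4 higher (0.0339%) and 4 lower (0.0339%) in distal members, and 417 had an unadjusted p under 0.05. The higher genes were Hoxc8, Hoxc6, Edil3 and Fat3, and the lower ones Scg2, Scara5, Igha and Jchain. Scg2 was among the genes that chose these members, and its test is the one given above. Hoxc8 and Hoxc6 are neighbouring homeobox genes on chromosome 15 that set position along the body axis. Hoxc8 (chr15:102898851-102902543, plus strand) stood at 10.9 and 6.60 CPM in proximal and at 76.9 and 84.8 CPM in distal members, a log2 change of 3.17 (SE 0.24, adjusted p = 0.0031). Hoxc6 (chr15:102906689-102920315, plus strand) stood at 22.9 and 22.3 CPM and at 56.8 and 68.5 CPM, a log2 change of 1.49 (SE 0.18, adjusted p = 0.0359). Of 17 Hox genes tested, these 2 rose and 0 fell. Hoxa2 to Hoxa5 stood lower in both distal libraries without passing the adjusted test. Hoxa5 was 19.4 and 23.6 CPM in proximal and 6.20 and 7.62 CPM in distal members (log2 change -1.60, unadjusted p = 0.00043, adjusted p = 0.314 in edgeR), and Hoxa2 was 7.05 and 9.75 against 1.03 and 1.52 CPM (-2.63, unadjusted p = 0.00099, adjusted p = 0.397 in edgeR). Hoxa3 (-1.08) and Hoxa4 (-1.40) had unadjusted p of 0.0051 and 0.0078 and adjusted p of 0.877 and 0.978 in edgeR. Trophocyte-like cells of the same libraries had 14.4 and 8.01 against 94.7 and 102 CPM of Hoxc8.

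Edil3, a secreted matrix protein that binds integrins, stood at 35.6 and 28.3 CPM in proximal and at 119 and 114 CPM in distal members (log2 change 1.87, SE 0.19, adjusted p = 0.0109). Fat3, an atypical cadherin, stood at 10.8 and 8.80 CPM and at 40.3 and 76.2 CPM (log2 change 2.56, SE 0.30, adjusted p = 0.0359), while trophocyte-like cells had 1.89 to 2.70 CPM in the 4 libraries. Scara5, a scavenger receptor for ferritin, fell from 75.0 and 64.5 CPM to 22.7 and 17.8 CPM (log2 change -1.76, SE 0.21, adjusted p = 0.0359). Lack of overlap between the regions was a condition for naming genes here, so no weight is put on it. With members of at least 5 genes Edil3 had a log2 change of 1.34 and an adjusted p of 0.0816, and Scara5 -1.76 and 0.447. With doublets removed, Fat3, Hoxc6 and Scara5 had adjusted p of 0.0905, 0.113 and 0.591. Without distal replicate 1 or without distal replicate 2 the single call was Scg2, a gene the rule used, and the adjusted p of Hoxc8 was then 0.0944 or 0.0858. In these fits the spread came from the proximal libraries alone, and the lone distal library was assumed to vary like them.

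The calls of Igha and Jchain, transcripts of the IgA antibody of plasma cells, rested on single barcodes. Igha was 634 and 1063 CPM in proximal and 82.1 and 110 CPM in distal members. In each proximal library 1 barcode held 2379 of 3596 and 2891 of 3381 of all Igha UMIs. Without barcodes of 50 or more Igha UMIs, Igha was 215 and 155 CPM against 82.1 and 110 CPM (log2 change -0.93, adjusted p = 0.539) and Jchain 95.8 and 62.1 CPM against 38.7 and 42.1 CPM (-0.95, adjusted p = 0.631). Both thus still stood lower in both distal libraries. Igha had a UMI in 79.7 and 78.7% of proximal and in 47.1 and 57.4% of distal members. In barcodes with at most 100 UMIs, Igha was 9210 and 8391 CPM in the proximal and 3005 and 3249 CPM in the distal libraries. Of the other lists, 0 genes passed the test in the adrenergic receptors (4 tested), potassium channels (5), BMP and GDF ligands (9), BMP antagonists (9), WNT ligands (5), WNT modulators (8), collagens (25) and immediate early and heat shock genes (22) by edgeR. Over all 11787 genes tested 8 passed (0.0679%), so 0 in lists of this size is near that share. It is not read as a result about these lists. The first lists include the rule genes Adra1a, Abcc9 and Gdf10 in members that these genes helped to choose. Their tests in members chosen without them are given below.

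**Figure D5:**
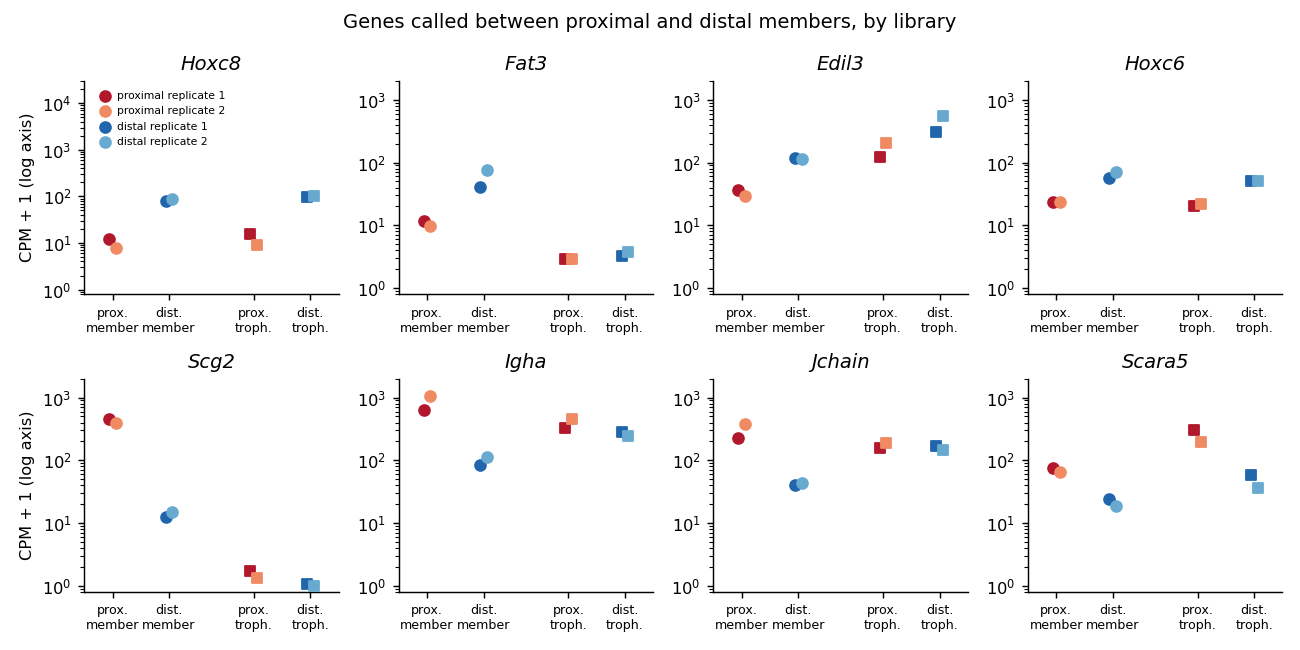
Levels of the 8 genes that passed the test between regions, as CPM plus 1 on a log axis, in members (circles) and trophocyte-like cells (squares) of each small intestinal library. Hoxc8 lies at 6.60 to 10.9 CPM in proximal and 76.9 to 84.8 CPM in distal members; Scg2 lies at 0.708 CPM or less in trophocyte-like cells.

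The other rule genes did not pass the test between regions in members chosen without the gene in question. Gdf10 had a log2 change of -0.71 (SE 0.21), Abcc9 of -0.67 (SE 0.21) and Ptn of -0.56 (SE 0.23), with unadjusted p of 0.0084, 0.0121 and 0.0386 and adjusted p of 0.94 to 1.00. Adra1a (-0.38), Car8 (-0.29), Dlg2 (-0.16) and Slc12a2 (0.11) were nearer to 0. Gdf10 stood at 518 and 505 CPM in proximal and at 256 and 359 CPM in distal members, and Abcc9 at 944 and 741 against 481 and 557 CPM. Ptn stood at 1665 and 1385 against 1086 and 947 CPM, and Adra1a at 478 and 373 against 295 and 349 CPM. With 2 libraries a region, no weight is put on the lack of overlap in these values, and its share over all tested genes is not given.

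Whether the regional changes of the members differed from those of trophocyte-like cells was tested with the class by region term, which passed for 53 of 17095 genes (0.31%), 25 higher (0.146%) and 28 lower (0.164%) in distal members relative to trophocyte-like cells, and 1070 had an unadjusted p under 0.05. Hoxc8 gave a difference of 0.09 (SE 0.18, adjusted p = 0.97) and Hoxc6 of 0.17 (adjusted p = 0.92), so that no difference between the classes was detected for either Hox gene. Edil3 (0.40, adjusted p = 0.90) and Scara5 (0.66, adjusted p = 0.56) did not pass either. Scg2 gave -1.65 with a wide SE of 0.95, because trophocyte-like cells held 0 to 0.708 CPM of it in the 4 libraries. Scg2 also took part in choosing the members and in the limit set on trophocyte-like cells, so this value is not read as a test.

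Among the named genes that passed in every alternative, Chodl and Ntrk3 had the smallest adjusted p. Chodl, the membrane lectin chondrolectin, stood at 432 and 417 CPM in proximal and at 297 and 331 CPM in distal members, whereas trophocyte-like cells went from 73.2 and 117 CPM to 7.71 and 13.3 CPM (difference 2.75, SE 0.22, adjusted p = 0.00019). Ntrk3, the receptor for neurotrophin 3, stood at 393 and 332 CPM against 281 and 284 CPM in members and at 99.7 and 71.0 CPM against 176 and 184 CPM in trophocyte-like cells (difference -1.45, SE 0.13, adjusted p = 0.00039). Ntrk3 thus stood lower in distal than in proximal members and higher in distal than in proximal trophocyte-like cells, and Chodl was lower in the distal libraries of both but far more so in trophocyte-like cells. Epb41l3 was low in trophocyte-like cells, at 0.725 to 2.25 CPM. Lrrc7 stood at 18.6 to 23.5 CPM in the members, and went from 24.6 and 21.7 CPM to 4.09 and 2.17 CPM in trophocyte-like cells. Chodl, Ntrk3, Epb41l3 and Lrrc7 passed the test in 14 of 14 settings, 4 of which leave 1 library in a region.

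In the cecum and the large intestine, with 1 library each and no replicate check, 627 of 13951 cells (4.49%, 95% exact interval 4.16 to 4.85) and 770 of 11751 (6.55%, 6.11 to 7.02) met the same rule. Thinned to 2500 UMIs the shares were 1.15 and 2.37%. The cecal cells differed from the small intestinal members in more than number: 69.4% of them held exactly 4 of the 8 genes and 5.10% held 6 or more, against 23.0 and 49.4% in the large intestine. Dlg2 was 114 CPM in the cecum and 735 CPM in the large intestine, and Car8 64.4 and 363 CPM. Kcnn3 was 1255 and 1345 CPM and P2ry1 356 and 504 CPM, the latter above the range of 61.4 to 122 CPM of the small intestinal members. Cpe was 12.9 and 7.53 CPM, below the 103 to 162 CPM of the small intestine, and Grem1 12.6 and 57.0 CPM. Hoxc8 was 5.49 and 1.00 CPM, while Hoxa10 was 41.5 and 55.0 CPM and Hoxd11 16.7 and 52.4 CPM.

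Fewer members than other Pdgfra-high cells carried a called hashtag. Members without one were 71.4 and 62.7% in the proximal and 52.5 and 72.6% in the distal libraries, against 38.0, 32.6, 13.5 and 23.9% of other Pdgfra-high cells in the same order. A low share with a hashtag was not particular to the members, since 48.4, 58.0, 21.7 and 52.8% of pericyte-like cells and 45.9, 41.9, 16.2 and 26.9% of trophocyte-like cells had none. The hashtag antibodies bind H-2 class I proteins and CD45. H2-K1, a class I gene, was 772, 799, 1300 and 862 CPM in the members and 1657, 1515, 2427 and 1798 CPM in other Pdgfra-high cells, while pericyte-like cells had 1148, 664, 1622 and 818 CPM, below the members in 2 of 4 libraries. B2m, the light chain of class I, was 619, 682, 871 and 714 CPM against 1110, 1083, 1346 and 1250 CPM. Both genes were lower in the members than in other Pdgfra-high cells in 4 of 4 libraries. Hashtags were called on counts not scaled for depth. Members had median gene UMIs of 6959, 9964, 6547.5 and 7286, against 9181, 11247.5, 8265.5 and 9583.5 in other Pdgfra-high cells. Scaled to an equal number of gene UMIs, median hashtag UMIs were 394, 294, 472 and 488 in members and 366, 357, 551 and 516 in other Pdgfra-high cells. The part of class I levels and of depth in the hashtag shares was not tested.

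The reporter locus was detected in few members at this depth. Tslp had a UMI in 2.19 and 4.94% of proximal and 2.52 and 2.61% of distal members, against 0.926 to 2.41% of trophocyte-like cells, and tdTomato in 4.52, 5.32, 4.62 and 2.61% of members. Il33, another alarmin cytokine of stroma, was 98.0 ± 17.6 CPM in the members and 211 CPM in trophocyte-like cells, lower in 4 of 4 libraries.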

How the data were processed

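Live tdTomato+ lamina propria cells were captured as 3′ droplet libraries, and the authors deposited raw counts of UMIs for every barcode, aligned to mm39 with the tdTomato sequence added (Cell Ranger 8.1.0 per the submitters' processing notes), before any removal of doublets, free RNA or cells. Hashtag counts were deposited in the same matrices.

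Barcodes were kept at 1000 to 7500 genes, 2500 to 40000 gene UMIs and under 10% mitochondrial UMIs, and the rule of the opening paragraph chose the cells. Doublets were called with Scrublet in scanpy 1.11.5 and kept in the main values. UMIs were summed over the cells of each library and scaled to counts per 1000000 (CPM). Proximal and distal sums were compared with edgeR 4.0.16 (filterByExpr with a minimum count of 10, TMM, quasi-likelihood test, Benjamini-Hochberg adjustment at 0.05) in R 4.3.3; the standard error (SE) of a log2 change was taken as its absolute value over the root of the F statistic. Differences between region effects of cell classes had library as a block. Shares were compared by an exact permutation test. A hashtag was called per barcode from its own distribution in each library. Tests were first run on simulated data. Low values are limited by counting error, and intervals (95%, exact Clopper-Pearson) cover counting error only.

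The member genes, gene lists and cell gates were chosen with earlier results of these data known. The genes named are those of the rule and the lists, up to 25 genes outside the rule with the largest ratio to comparison cells and 15 with the smallest (5 CPM added), and per test up to 10 called genes a direction with non-overlapping regions. Genes in the split by Scg2 UMIs were chosen after their values were seen. Some genes that these rules name are not reported here. Alternatives were limma-voom 3.58.1, DESeq2 1.42.0, RLE scaling, no count filter, each library left out, a replicate block, doublets removed, 10% of free RNA subtracted, other numbers of rule genes and, added after the data had been seen, at least 6 rule genes, equal cell numbers and removal of barcodes rich in Igha. Mice could not be told apart within a library, since hashtags are not paired with mice in the tables used.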

Additional observations from a re-analysis of the deposited data

Results flagged for a closer look

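The region difference of 19 named genes was unlike that of trophocyte-like cells, by the class by region term in edgeR. Each value is the log2 change from proximal to distal in members minus that in trophocyte-like cells. Values above 0 were Gm8113 5.68, Ccl5 3.95, Saa3 2.89, Chodl 2.75, Lrrc7 2.69, Fat3 2.15, Cxcl9 1.99, Ntrk2 1.56, Gm34455 1.54 and Brinp3 1.22. Values below 0 were Iglv1 -6.20, Jchain -2.73, Igha -2.54, AI504432 -1.78, Epb41l3 -1.78, Kcng4 -1.72, Ifit3 -1.55, Ntrk3 -1.45 and 2610203C22Rik -1.37. The adjusted p of these genes lay between 0.00016 and 0.0354.

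Several of these rest on 1 library or on low counts. Saa3, an acute phase gene, was 500.3 CPM in distal replicate 1 and 2.52 to 23.4 CPM in the other 3 small intestinal libraries of the members. The chemokine gene Cxcl9 was 116 CPM in distal replicate 1 and 11.99 to 26.4 CPM in the others. Gm8113 stood at 0.314 to 4.57 CPM and Ccl5 at 0.353 to 10.3 CPM. Levels in trophocyte-like cells were low for Epb41l3 (0.725 to 2.25 CPM), Kcng4 (1.13 to 2.73 CPM), AI504432 (1.08 to 3.60 CPM) and Fat3 (1.89 to 2.70 CPM). Iglv1, Igha and Jchain are immunoglobulin genes of plasma cells; without barcodes of 50 or more Igha UMIs their differences were -1.35, 0.0069 and -0.0038, with adjusted p of 0.93 to 1.00.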

How the results depend on the processing

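The number of genes called between proximal and distal members was 8, and 5 with limma-voom, 18 with DESeq2, 113 with no count filter, 3 without doublets, 5 after subtraction of 10% free RNA, 5 with at least 3 of the 8 genes and 4 with at least 6. Leaving out 1 library gave 1 to 28 calls (12 and 28 without proximal replicate 1 and 2, 1 and 1 without distal replicate 1 and 2). With the replicate block 64 genes were called (26 higher, 38 lower in distal). The labels give no shared mouse or batch for a replicate number; same-numbered libraries of both regions carried the same hashtags, and their deviations had a correlation of 0.21 over 11787 genes, so with 2 pairs whether the numbers pair the libraries was not settled. Hoxc8 kept its call in 14 of 16 settings, Edil3 in 11, Fat3 in 10, Hoxc6 and Scara5 in 9 of 16, and Igha and Jchain in 9 of 15; no direction turned. The settings counted include 4 that leave 1 library in a region, which is then assumed to vary like the other region.

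The class by region term had 53 calls, and 244 with no count filter, 31 without doublets, 124, 8 and 104 with at least 5, 3 and 6 genes, and 110 to 272 with 1 library left out (150, 272, 145 and 110). Saa3 turned to -2.25 without doublets, and which barcodes held its transcripts was not examined. Igha turned to 0.0069 without barcodes rich in Igha, which held most of its UMIs in the proximal members. The share difference kept its direction in all alternatives (1.34 to 3.07 points, and 0.343 to 2.84 with 1 library left out). Mean Kcnn3 was 2463 CPM with at least 5 genes, 2601 with at least 6 and 1338 with at least 3, which adds cells low in Kcnn3. With 2 libraries a region, regional changes of moderate size may have been missed.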
